A study of Mus musculus with 6 samples.

Results

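The 8 genes described here encode the enzymes that turn ammonia into urea in the liver and the enzymes that feed ammonia into that pathway: Cps1, Otc, Ass1, Asl, Arg1, Nags, Gls2 and Glud1. They were taken by symbol from a table of 52459 genes, all 8 were found, and all 8 were among the 17032 genes with enough counts to be tested. RNA-Seq was done on the livers of 6 male C57BL6J mice of the Alb-Cre/Cas9 F1 generation, in which Cas9 is switched on by Cre under the albumin promoter, that is, in hepatocytes. At 4 to 5 weeks of age each mouse received an AAV8 vector with a U6-driven guide RNA, the control guide in 3 mice (sgCtrl, mice 5.1, 7.1 and 7.2) and a guide against Prdx2, the gene of a peroxiredoxin that breaks down hydrogen peroxide, in the other 3 (sgPrdx2, mice 1.1, 1.3 and 3.2). All 6 mice then received the liver carcinogen diethylnitrosamine (DEN, 100 mg/kg) and 6 months of a choline-deficient high-fat diet (CDAHFD), and were labelled as 8 months old, so that both groups are diseased livers and no liver without DEN and diet was analysed here. RNA came from liver tissue, which also holds cells in which Cas9 is not switched on and hepatocytes that the vector did not reach. Whether the tissue was tumor, non-tumor or a mixture is not given in the sources used here, so that a difference in tumor content and a difference within cells cannot be told apart.

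Ammonia is released in the liver when amino acids are broken down and also arrives from the gut in the portal blood. In the mitochondria of hepatocytes, CPS1 joins it with bicarbonate to carbamoyl phosphate, a step that runs only when NAGS supplies the activator N-acetylglutamate. OTC passes the carbamoyl group to ornithine to make citrulline, ASS1 and ASL build arginine from citrulline and aspartate in the cytosol, and ARG1 splits arginine into urea and ornithine. GLS2, the liver-type glutaminase, frees ammonia from glutamine, and GLUD1 frees it from glutamate. The steps of the cycle and GLS2 are known to be strongest in the hepatocytes around the portal vein. The hepatocytes around the central vein trap left-over ammonia in glutamine through glutamine synthetase (Glul).

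On GRCm38 the annotation places Cps1 at chr1:67123026-67231259 and Ass1 at chr2:31470207-31520672, both on the plus strand. Otc lies at chrX:10252305-10321024, Nags at chr11:102145513-102149477, Gls2 at chr10:128194457-128210004 and Glud1 at chr14:34310727-34345265, all on the plus strand. Asl at chr5:130011258-130029247 and Arg1 at chr10:24915221-24927484 are on the minus strand. The RefSeq promoter table for GRCm38.p6 held a promoter for 4 of the 8 genes, and the 250 bases before the start of transcription are printed for 2 of them, Otc, which had the smallest p of the 8 genes, and Glud1, which had the largest. Both are on the plus strand, Otc at chrX:10252055-10252304 and Glud1 at chr14:34310477-34310726, and capitals mark a GC box.
Otc: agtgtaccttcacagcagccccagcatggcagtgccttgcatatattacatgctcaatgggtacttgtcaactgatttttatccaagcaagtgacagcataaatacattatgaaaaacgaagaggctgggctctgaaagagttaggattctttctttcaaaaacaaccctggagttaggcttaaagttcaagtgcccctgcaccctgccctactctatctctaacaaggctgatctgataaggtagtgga
Glud1: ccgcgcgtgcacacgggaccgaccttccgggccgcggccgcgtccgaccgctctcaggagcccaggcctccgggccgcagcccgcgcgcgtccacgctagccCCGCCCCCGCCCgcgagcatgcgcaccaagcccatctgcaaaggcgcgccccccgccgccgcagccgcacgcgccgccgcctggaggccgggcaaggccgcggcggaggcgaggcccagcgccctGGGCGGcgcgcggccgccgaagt
The promoters differ widely in base composition. The Otc promoter had a GC content of 43.6% with 1 CpG, and the Glud1 promoter 82.0% with 46 CpGs. Ass1 lay nearer to Glud1, at 75.6% GC with 23 CpGs, and Nags between them, at 55.6% with 11 CpGs. In windows that ran 50 bases further, past the start, 7 motifs were searched on both strands. The GC box (GGGCGG), present in 35.7% of the 32851 promoters of the table, was found 3 times in Glud1 (148, 142 and 23 bases before the start, counted to the first base of the match), 2 times in Nags, 1 time in Ass1 and not in Otc. A TATA box (TATAAA, 13.6% of promoters), a CCAAT box (CCAAT, 37.4%), a C/EBP motif (TTNNGCAA, 10.8%), an HNF4 motif (CAAAGTCCA, 0.475%), a cyclic AMP response element (TGACGTCA, 1.79%) and an HNF1 half-site (GTTAAT, 7.1%) had no match in any of the 4 windows.

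Total counts per liver lay between 37462102 and 56865293, at which 3 counts stand for 0.0555 to 0.0921 CPM (counts per 1000000 counts, normalized by edgeR's TMM method), a limit that covers counting error only. Prdx2 RNA overlapped between the groups. It was at 109, 117 and 132 CPM in the sgCtrl livers and at 99.0, 112 and 149 CPM in the sgPrdx2 livers (log2 fold change 0.01, SE 0.18, edgeR adjusted p = 0.983), and since Cas9 cuts DNA and need not lower RNA, this value does not check the labels. Between the groups, 567 genes passed edgeR's quasi-likelihood test at a Benjamini-Hochberg adjusted p under 0.05, with 305 increases and 262 decreases in the sgPrdx2 group.

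All 8 genes had higher mean RNA levels in sgPrdx2 than in sgCtrl livers. For 7 of them, all but Glud1, every sgPrdx2 liver lay above every sgCtrl liver. The differences ran from 0.33 (Glud1) to 1.21 (Gls2) on the log2 scale with a median of 0.90, against a median of -0.02 over all genes tested. None of the 8 passed edgeR's test at an adjusted p under 0.05, the rule by which 3.33% of all genes were called in either direction and 1.79% as higher in sgPrdx2. At an unadjusted p under 0.05, 7 of the 8 were higher, against 13.0% of all genes. DESeq2, run on the same counts, called these same 7 as higher, against 7.58% of its 15329 genes. A separation of the groups with sgPrdx2 higher, seen in 7 of the 8, occurred in 16.7% of all genes. The 8 genes work in the same pathway and were read from the same 6 livers, so that they are not 8 independent observations. How much of the RNA of each came from cells other than hepatocytes was not measured.

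Cps1, which makes carbamoyl phosphate and sets the entry of ammonia into the cycle, was at 437, 1080.4 and 1039 CPM in sgCtrl livers 5.1, 7.1 and 7.2 and at 1837, 1851 and 1206 CPM in sgPrdx2 livers 1.1, 1.3 and 3.2. Its mean was 852 ± 360 CPM (SD, n = 3) against 1631 ± 368 CPM, a log2 fold change of 0.94 (SE 0.35, edgeR adjusted p = 0.153). The groups did not overlap, but the highest control liver lay close to the lowest sgPrdx2 liver, and sgCtrl liver 5.1 stood far below the other controls. Nags, which makes the activator that CPS1 requires, was at 42.0, 48.2 and 51.8 CPM in the sgCtrl livers and at 84.8, 62.6 and 112 CPM in the sgPrdx2 livers. Its 3 control values were close together and all below the sgPrdx2 values, which were spread more widely (log2 fold change 0.87, SE 0.21, edgeR adjusted p = 0.0660).

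Otc, the last mitochondrial enzyme of the cycle, had the smallest unadjusted p of the 8 genes (0.00169, edgeR). It was at 139, 274 and 202 CPM in the sgCtrl livers and at 481, 424 and 428 CPM in the sgPrdx2 livers. Every sgPrdx2 liver was well above the highest control. The mean was 205 ± 67.5 against 444 ± 31.9 CPM (SD, n = 3 per group), and the log2 fold change of 1.12 (SE 0.24) had an edgeR adjusted p of 0.0504, just above the threshold. DESeq2 gave an adjusted p of 0.000254 for the same gene, and edgeR with RLE or upper-quartile normalization put it below 0.05. With library size alone the edgeR adjusted p was 0.0521, and with scaling to 6 reference genes 0.0512. With 1 liver left out it ran from 0.0378 (without sgCtrl 7.1) to 0.168 (without sgCtrl 7.2).

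Ass1 and Asl, the cytosolic pair that makes arginine, were also higher in each sgPrdx2 liver than in any control. Ass1 was at 238, 566 and 705 CPM in the sgCtrl livers and at 941, 1292 and 1122 CPM in the sgPrdx2 livers (log2 fold change 1.15, SE 0.36, edgeR adjusted p = 0.110). Asl was at 191, 192 and 325 CPM in the sgCtrl livers and at 353, 371 and 534 CPM in the sgPrdx2 livers (log2 fold change 0.83, SE 0.26, edgeR adjusted p = 0.112). Liver 5.1 was the lowest control for both, clearly so for Ass1 and level with 7.1 for Asl, and in each group liver 7.2 or 3.2 held the highest Asl value. Ass1 shares much of its sequence with Gm5424, an Ass1 copy: 911 of its 2359 stretches of 50 bases (38.6%) occur in the transcripts of both. Counts on Gm5424 were 31.1% to 32.6% of those on Ass1 in all 6 livers, and its log2 fold change was 1.16 (edgeR adjusted p = 0.109). With the counts of both genes summed, the log2 fold change was 1.15 (edgeR adjusted p = 0.111). Since the share of Gm5424 hardly differed between livers, the sum could not differ much from Ass1 alone. It does not test how reads that fit both copies were counted.

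Arg1, which releases urea, was at 348, 350.0 and 510 CPM in the sgCtrl livers and at 708, 692 and 663 CPM in the sgPrdx2 livers. The 3 sgPrdx2 livers were within a narrow band (688 ± 22.9 CPM, SD, n = 3, a coefficient of variation of 3.34%), and the controls lay below it at 403 ± 92.9 CPM with 7.2 as the highest (log2 fold change 0.77, SE 0.18, edgeR adjusted p = 0.0621).

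The ammonia-releasing enzymes Gls2 and Glud1 marked the ends of the range. Gls2 was at 44.1, 128 and 215 CPM in the sgCtrl livers and at 246, 365 and 283 CPM in the sgPrdx2 livers. The controls differed among themselves more than for any other of the 8 genes (coefficient of variation 66.3%), and the log2 fold change of 1.21 had the largest error of the set (SE 0.48, edgeR adjusted p = 0.175). Glud1 was at 528, 705 and 669 CPM in the sgCtrl livers and at 976, 784 and 634 CPM in the sgPrdx2 livers. The groups overlapped, since sgPrdx2 liver 3.2 lay below 2 of the controls (log2 fold change 0.33, SE 0.20, edgeR adjusted p = 0.342). When libraries were scaled by their size alone, the median of all genes shifted to -0.39 and Glud1 to -0.03, the only sign change among the 8 under any scaling, and Glud1 stood 0.36 above that median, compared with 0.35 under TMM. Small parts of 3 of the genes are shared with other genes: 13.5% of the 50-base stretches of Nags with the overlapping Gm11586, 6.49% of Glud1 with Glud-ps and Gm43444, and 1.28% of Gls2 with the overlapping Spryd4. The strand setting of the counts is not given in the sources used here, and without it reads of the overlapping genes cannot be told apart. Cps1, Otc, Asl and Arg1 shared none.

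**Figure D1:**
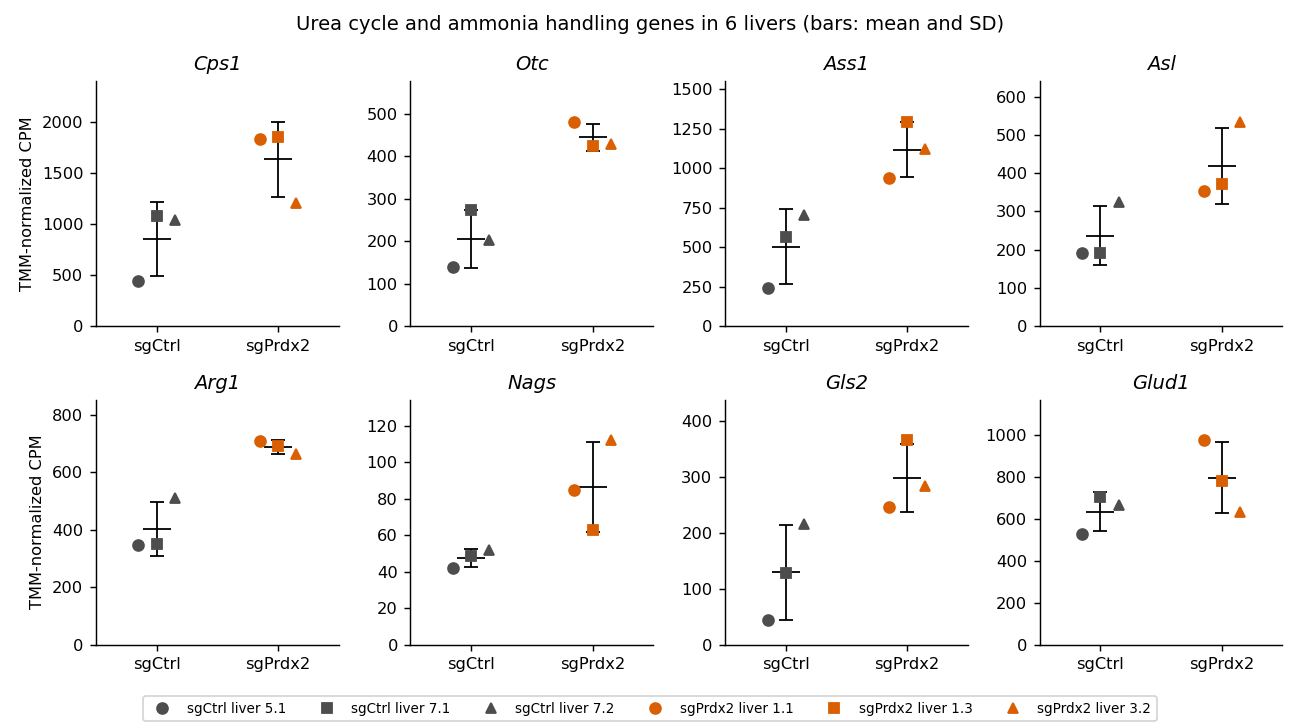
TMM-normalized CPM (vertical axes, each from 0) of the 8 genes in each of the 6 livers, with 1 marker per liver and black bars for the mean and SD of 3 livers. The sgPrdx2 livers lie above all sgCtrl livers in every panel but Glud1, where liver 3.2 (634 CPM) falls among the controls, and sgCtrl liver 5.1 is the lowest control in every panel.

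Liver 5.1 held the lowest of the 3 control values for all 8 genes, and liver 7.2 the highest for 5. Most genes of periportal hepatocytes were also lowest in 5.1, and most genes of pericentral hepatocytes were highest there. Of 11 periportal genes, 8 (Pck1, Hal and Sds among them) were lowest in 5.1, 6 were highest in 7.2, and the other 3 (Cyp2f2, Hsd17b6 and Cdh1) were lowest in 7.2. Of 11 pericentral genes, 9 (Cyp2e1, Glul and Cyp1a2 among them) were highest in 5.1 and 10 lowest in 7.2, and Oat was the 1 lowest in 5.1. With each gene set to its mean over the 6 livers, the median of the 8 genes was -0.89, -0.36 and -0.05 on the log2 scale in livers 5.1, 7.1 and 7.2. The periportal median was -1.50, -0.19 and 0.00091 in these livers, and the pericentral median 0.02, -0.16 and -0.72. The periportal median minus the pericentral median was -1.52, -0.02 and 0.72.

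In the sgPrdx2 livers all 3 medians were above 0. They were 0.46, 0.46 and 0.60 for the 8 genes, 0.56, 0.71 and 0.25 for the periportal genes, and 0.24, 0.21 and 0.55 for the pericentral genes in livers 1.1, 1.3 and 3.2. The difference of periportal and pericentral medians was 0.31, 0.50 and -0.31 in these livers, within the range of the controls, so that the groups overlapped in it although both lists were higher in sgPrdx2 livers. These are descriptions over 6 livers, and the part of the zonal genes' spread in the difference of the 8 enzymes was not tested. Without sgCtrl liver 5.1, the log2 fold change of Cps1 was 0.62 and that of Gls2 0.80, that of Ass1 0.81 and that of Glud1 0.22, for Cps1, Gls2 and Glud1 more than 1.5 times smaller. That of Glud1 was 0.16 without sgPrdx2 liver 1.1, and ranged from 0.16 to 0.49 with any 1 liver left out.

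**Figure D2:**
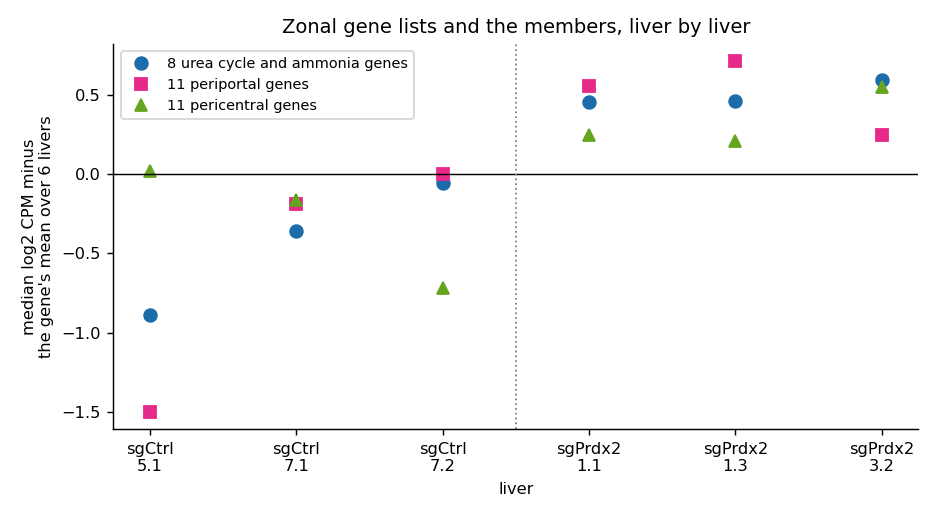
Median log2 CPM of the 8 genes (circles), 11 periportal genes (squares) and 11 pericentral genes (triangles) in each liver, each gene counted from its own mean over the 6 livers. In sgCtrl livers the circles and squares are lowest in 5.1 and highest in 7.2, whereas the triangles are highest in 5.1 (0.02) and lowest in 7.2 (-0.72), and in sgPrdx2 livers all 3 sets lie above 0.

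RNA of other hepatocyte genes was higher in the sgPrdx2 livers too. The summed level of 11 hepatocyte markers (albumin, apolipoproteins and others, none at 0 in every liver) was 97809 to 106610 CPM in sgCtrl and 165811 to 225419 CPM in sgPrdx2 livers, a log2 difference of 0.93 (p = 0.1 by a two-sided exact permutation test, which can give no lower p with 3 livers against 3, and 0.14 adjusted over 7 marker lists). In the other direction, without overlap and with the same p values, went the markers of macrophages (10 genes, 3385 to 3854 CPM against 2341 to 3157 CPM), stellate cells and fibroblasts (10 genes, 2300 to 2659 CPM against 1687 to 1770 CPM), cholangiocytes (6 genes, 1630 to 1858 CPM against 1217 to 1393 CPM) and lymphocytes (10 genes, 93.6 to 111 CPM against 54.8 to 78.1 CPM). Endothelial markers (8 genes, 311 to 341 CPM against 214 to 318 CPM) and neutrophil markers (7 genes, 22.5 to 30.1 CPM against 19.9 to 23.7 CPM) overlapped between the groups. No marker of these lists was at 0 in every liver. In RNA from whole liver, fewer cells of a type and less RNA per cell cannot be told apart.

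Set against the summed hepatocyte markers, the 8 genes no longer shifted to one side. The log2 difference of the ratio of each gene to the marker sum was negative for 4 of them and positive for the other 4, and it ranged from -0.60 to 0.54. Glud1 was the only gene without overlap between the groups: per 1000 CPM of hepatocyte markers it was at 5.40, 6.62 and 6.39 CPM in the sgCtrl livers and at 4.88, 4.73 and 2.81 CPM in the sgPrdx2 livers, lower in all 3 (log2 difference -0.60, exact permutation p = 0.1, 0.8 adjusted over the 8 genes). With 1 liver left out this difference was -0.74 to -0.35, the smallest of these without sgPrdx2 liver 3.2. Cps1, by contrast, was at 4.46, 10.1 and 9.92 CPM per 1000 CPM of markers in the sgCtrl livers and at 9.18, 11.2 and 5.35 CPM in the sgPrdx2 livers. The lowest value of each group, in 5.1 and 3.2, was well apart from the other 2, and the log2 difference was 0.10 (exact permutation p = 0.7).

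Of the remaining genes, Gls2 (0.54), Ass1 (0.35) and Otc (0.24) stood higher relative to the markers, and Asl (-0.08), Nags (-0.09) and Arg1 (-0.13) lower, all 6 with overlapping groups and exact permutation p values of 0.4 to 0.8. Leaving albumin out of the sum, or averaging log2 levels over the markers, again left Glud1 as the only gene of the 8 without overlap, at -0.55 and -0.61. The SD of these log2 ratios among livers of a group ran from 0.10 (Nags in the controls) to 1.11 (Gls2 in the controls), so that the precision differed widely between the genes.

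**Figure D3:**
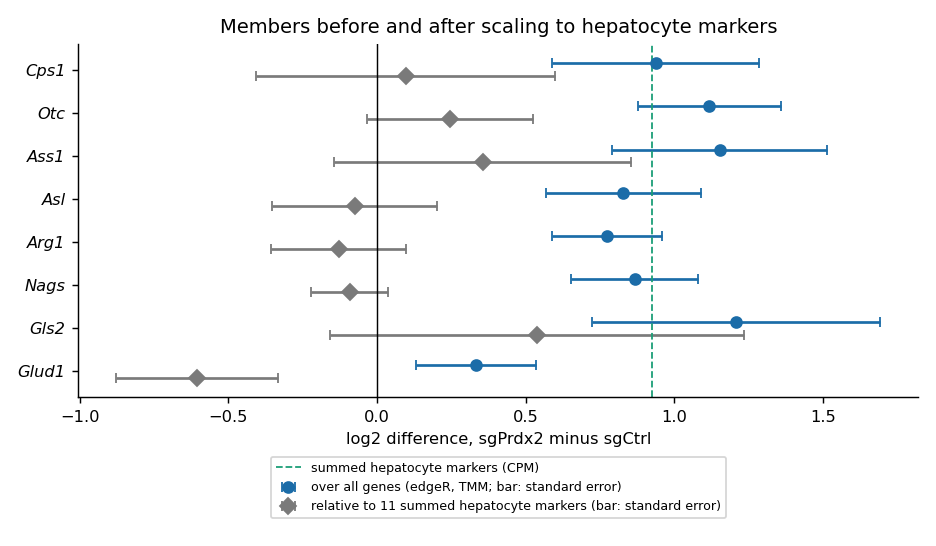
Log2 difference between sgPrdx2 and sgCtrl livers for each of the 8 genes over all genes (circles, edgeR with TMM) and relative to 11 summed hepatocyte markers (diamonds). Bars are standard errors, derived from edgeR's F statistic for circles and from the SD among livers for diamonds, and are not the same measure. The dashed line is the marker sum itself, at 0.93. All circles lie right of 0, whereas the diamonds lie on both sides of it and Glud1 is at -0.60.

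Ratios of 2 genes within a liver do not depend on how libraries are scaled, and 13 pairs were compared by two-sided exact permutation tests. The Cad/Cps1, Arg2/Arg1 and Glud1/Cps1 ratios were lower in each sgPrdx2 liver than in any control. Cad, which starts pyrimidine synthesis with the cytosolic form of the CPS1 reaction, differed by -1.28 relative to Cps1, Arg2, the second arginase, by -0.77 relative to Arg1, and Glud1 by -0.70 relative to Cps1. For Glud1 the log2 ratio was 0.27, -0.62 and -0.64 in the sgCtrl livers and -0.91, -1.24 and -0.93 in the sgPrdx2 livers. Without sgCtrl liver 5.1 its difference was -0.40, and with any other liver left out it was -0.86 to -0.59. These ratios had p = 0.1, the smallest these exact tests allow, and 0.325 after adjustment over the 13 pairs. Arg2 was low throughout, at 0.617 to 1.01 CPM, and its own level overlapped between the groups (log2 fold change 0.01, edgeR adjusted p = 0.986).

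Within the cycle the proportions of the enzymes overlapped between the groups. Relative to Cps1, the log2 ratio differed by 0.15 for Otc, 0.26 for Ass1, -0.23 for Arg1, -0.19 for Nags and 0.44 for Gls2, with p values from 0.3 to 0.7 (exact permutation, 0.758 after adjustment), and Asl relative to Ass1 by -0.43 (p = 0.5). The pair that stands for the portal and central ways of binding ammonia, Glul to Cps1, was at 1.32, -0.11 and -0.67 in the sgCtrl livers and at -0.55, -0.57 and 0.22 in the sgPrdx2 livers. As for the pericentral genes, 5.1 was the highest and 7.2 the lowest control, and the groups overlapped (difference -0.48, exact permutation p = 0.7). Oat, which removes ornithine, differed by -0.06 relative to Otc.

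CPM per kilobase of exon was used to compare the genes with each other. The length covered the annotated exons of each gene (5555 bases for Cps1, 4831 for Asl, 4241 for Otc and 2228 for Arg1). It need not be the length of the transcripts present in these livers, and the order under other lengths was not tested. Ass1 was taken without the counts on Gm5424. On this scale Ass1, Arg1, Cps1 and Glud1 were the highest of the 8 in both groups. In sgCtrl livers they were at 208 ± 99.2, 181 ± 41.7, 153 ± 64.9 and 151 ± 22.2 CPM per kilobase (SD, n = 3), and their ranges overlapped from each to the next. Asl (48.9 ± 15.9), Otc (48.3 ± 15.9), Gls2 (37.1 ± 24.6) and Nags (16.7 ± 1.74) followed in CPM per kilobase, and the step from Glud1 to Asl was the only one between neighbours without overlap.

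In sgPrdx2 livers the order was the same but for Otc and Asl, which changed places. Ass1 was at 463 ± 72.7 CPM per kilobase and lay above Arg1 (309 ± 10.3) in all 3 livers without overlap of their ranges. Cps1 (294 ± 66.3) and Glud1 (190 ± 40.7) came next, and Glud1 was separated from Otc (105 ± 7.52), which overlapped with Asl (86.8 ± 20.6) and Gls2 (85.8 ± 17.5). Nags, whose product is needed only as an activator, was lowest at 30.5 ± 8.70 CPM per kilobase, apart from Gls2.

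The genes around the cycle were described through 7 lists of 85 tested genes in all, of which edgeR called 12 (11 higher and 1 lower in sgPrdx2 livers, against 3.33% of all genes called) and whose median log2 fold change was 0.54. Libraries scaled by size alone gave 10 higher and 9 lower. Leaving out any 1 of sgCtrl livers 5.1 and 7.2 and sgPrdx2 livers 1.1 and 1.3 took the number called by edgeR to 0, in the lists and among all genes, with 41 to 48 of the list genes at an unadjusted p under 0.05, compared with 49 in all 6 livers.

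Of the transporters that carry cycle intermediates, glutamine, ammonia and urea, 14 of 18 were tested, 1 was called and 11 had a positive log2 fold change (median 0.61). The 1 called was Slc38a3, a glutamine transporter of the hepatocyte membrane. It was at 961, 999 and 1067 CPM in the sgCtrl livers and at 2099, 1981 and 2395 CPM in the sgPrdx2 livers, tight in both groups (log2 fold change 1.1, SE 0.15, edgeR adjusted p = 0.0328). The mitochondrial exchangers of the cycle itself did not pass the test: Slc25a15, for ornithine and citrulline, had a log2 fold change of 0.75 (edgeR adjusted p = 0.101) and Slc25a13, for aspartate, one of 0.60 (edgeR adjusted p = 0.0604), both without overlap between groups.

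Of 17 enzymes of glutamine, glutamate, ornithine and proline, 11 had a positive log2 fold change (median 0.51), and edgeR called 4 as higher and 1 as lower. The 4 called as higher degrade amino acids or supply the cycle. Prodh2, a hydroxyproline dehydrogenase, was at 69.8, 94.8 and 73.3 CPM in the sgCtrl livers and at 235, 204 and 303 CPM in the sgPrdx2 livers (log2 fold change 1.64, SE 0.20, edgeR adjusted p = 0.0313). Aldh4a1, which turns the product of proline breakdown into glutamate, rose by 0.91 (SE 0.16, edgeR adjusted p = 0.0396). Car5a, the mitochondrial carbonic anhydrase that makes bicarbonate for CPS1, was at 16.7, 24.5 and 14.6 CPM in the sgCtrl livers and at 59.5, 43.1 and 51.4 CPM in the sgPrdx2 livers (log2 fold change 1.47, SE 0.22, edgeR adjusted p = 0.0355). Gpt, the alanine aminotransferase, rose by 1.03 (SE 0.18, edgeR adjusted p = 0.0394). The 1 called as lower, Aldh18a1, works in the opposite direction to Aldh4a1, towards proline and ornithine from glutamate. It was at 11.5, 11.1 and 14.9 CPM in the sgCtrl livers and at 5.90, 6.34 and 6.23 CPM in the sgPrdx2 livers, lower in all 3 (log2 fold change -1.02, SE 0.16, edgeR adjusted p = 0.0358). Glul (0.51, edgeR adjusted p = 0.184), Oat (1.06, edgeR adjusted p = 0.105) and Cad (-0.27, edgeR adjusted p = 0.252) did not pass.

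The list around other uses of arginine held 8 genes, of which Agmat, Gamt and Odc1 do not act on arginine itself. It was the list whose median was below 0 (-0.21), with 3 positive log2 fold changes and 2 genes called. Agmat, annotated as an agmatinase, rose by 1.25 (SE 0.22, edgeR adjusted p = 0.0394) and Gamt, which completes creatine synthesis, by 1.14 (SE 0.17, edgeR adjusted p = 0.0355). Both were higher in each sgPrdx2 liver than in any control, Agmat at 105 ± 19.9 against 250.4 ± 60.9 CPM and Gamt at 108 ± 5.93 against 238 ± 45.2 CPM (SD, n = 3). Gatm, the enzyme before Gamt in creatine synthesis, which uses arginine itself, had a log2 fold change of -0.55 (edgeR adjusted p = 0.158), and its groups did not overlap.

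A list around the release of ammonia in amino acid breakdown held 15 genes. In it Ampd2 acts on a nucleotide, and Cbs, Uroc1, Gcsh and Gldc do not free ammonia themselves. Of the 14 tested, all 14 had a positive log2 fold change (median 0.71), 8 were higher without overlap (16.7% of all genes) and 1 was called. This was Aspg, an asparaginase, at 60.5, 73.1 and 51.9 CPM in the sgCtrl livers and 163, 152 and 129 CPM in the sgPrdx2 livers (log2 fold change 1.26, SE 0.17, edgeR adjusted p = 0.0328). Of 16 regulators of urea cycle genes or of their enzymes, 14 were positive, 12 were higher without overlap (median 0.43) and 1 was called. The 1 called was Sirt3, a mitochondrial deacetylase known to act on the OTC protein and not on its gene. It was at 58.8 ± 8.10 against 105 ± 9.95 CPM (SD, n = 3, log2 fold change 0.84, SE 0.15, edgeR adjusted p = 0.0409). The hepatocyte transcription factors Cebpa (0.67, edgeR adjusted p = 0.0772) and Hnf4a (0.30, edgeR adjusted p = 0.229) and the glucagon receptor Gcgr (0.65, edgeR adjusted p = 0.0575) did not pass the test.

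Of the zonal lists, 1 gene of each was called, Hsd17b6 among the periportal genes (log2 fold change 1.79, SE 0.28, edgeR adjusted p = 0.0358, list median 1.12) and Cyp2e1, also a hepatocyte marker, among the pericentral ones (log2 fold change 0.96, SE 0.18, edgeR adjusted p = 0.0409, list median 0.62). In each list 10 of 11 genes had a positive log2 fold change. Without overlap and higher were 8 of the periportal and 5 of the pericentral genes, and 16.7% of all genes.

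**Figure D4:**
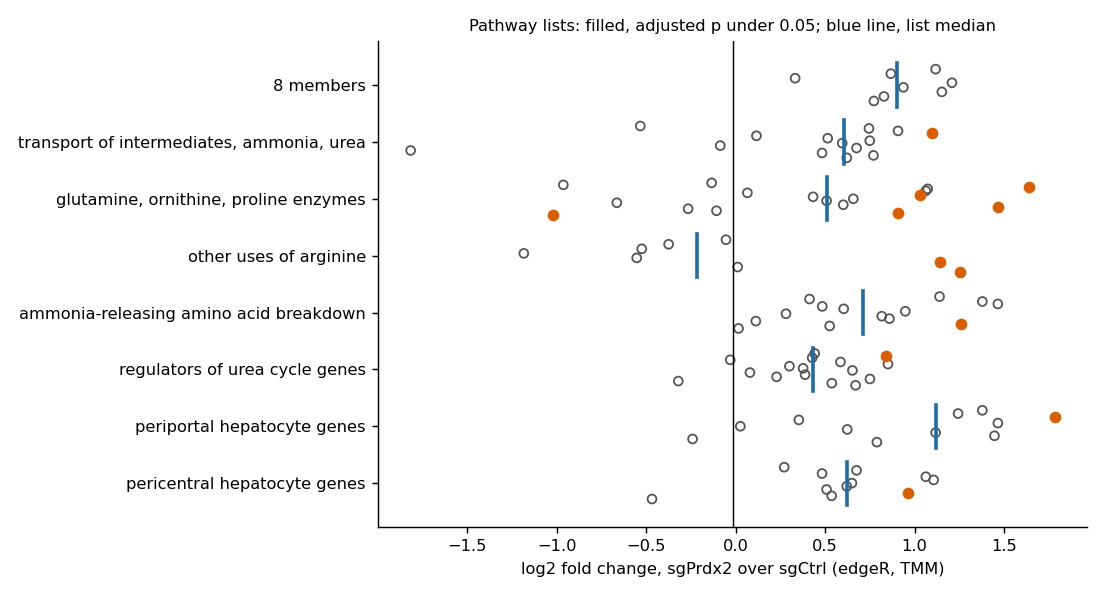
Log2 fold change (edgeR, horizontal axis) of each tested gene of the 8 enzymes and of 7 lists around the cycle (rows), with genes at an adjusted p under 0.05 filled, list medians in blue and the median of all genes as a black line. Filled points lie between 0.84 and 1.79 except for Aldh18a1 at -1.02, and the list of other arginine uses is the row whose median is left of the black line.

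Over all genes tested, the 5 whose profile across the 6 livers lay nearest to the mean profile of the 8 enzymes were Ftcd, Fgg, Gm8930, Ivd and 1810019D21Rik, with root mean square differences of 0.069 to 0.113 on the log2 scale, compared with 0.222 (Arg1) to 0.489 (Gls2) for the 8 themselves. Ftcd, an enzyme of histidine breakdown that releases ammonia, was at 120.0, 221 and 264 CPM in the sgCtrl livers and at 399, 390 and 378 CPM in the sgPrdx2 livers (log2 fold change 0.95, edgeR adjusted p = 0.0873). Liver 5.1 was the lowest and 7.2 the highest control, an order that 5 of the 8 enzymes had, and since Ftcd was picked for this likeness the values are a description. Fgg encodes the gamma chain of fibrinogen and Ivd an enzyme of leucine breakdown, both products of hepatocytes, and Gm8930 had only 5 to 19 counts per liver.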

How the data were processed

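RNA-Seq of 3 sgCtrl and 3 sgPrdx2 livers was analysed, with groups taken from the sample titles. The authors deposited raw counts of reads per gene for each liver. HISAT2, HTSeq, DESeq2 and GRCm38 are named in the submitters' processing notes, and the versions, the annotation and the strand setting are not given in the sources used here. A second table with the authors' own DESeq2 comparison was not used. Genes were kept by filterByExpr (minimum count 10), normalized by TMM and tested with edgeR 4.0.16 (quasi-likelihood, no covariate, all 6 livers) in R 4.3.3, with Benjamini-Hochberg adjustment over 17032 genes and calls at an adjusted p under 0.05. The SE of an edgeR log2 fold change was derived from that change and the F statistic of its test. Fits were tested on simulated data. Single values were compared by two-sided exact permutation tests. Ratios had 0.5 added to both counts. DESeq2 1.42.0 and other scalings, filters, thresholds and left-out livers were alternatives. Summing Ass1 with Gm5424 was added after seeing the data. Lengths, positions and shared stretches came from the GENCODE annotation of GRCm38, which need not be the authors'.

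The 8 genes, lists and tests were chosen with earlier results of these data known. Named were Prdx2, the 8 genes, the genes called in each list (up to 6), both genes of each ratio and the 5 nearest profiles. Slc25a15, Slc25a13, Gatm, Cebpa, Hnf4a and Gcgr, the examples of the zonal lists and the 2 printed promoters were chosen after their values were seen. Each liver is from its own mouse. A result on 1 ratio and its gene is not reported here, although it was tested and adjusted with the others.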

Additional observations from a re-analysis of the deposited data

How the results depend on the processing

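No paired analysis was possible because the mouse numbers of the 2 groups are not shared. Of the 8 genes, edgeR called 0, and 1 with RLE or upper-quartile normalization or at least 10 counts in every liver, 3 at an adjusted p under 0.10, 4 with no filter on low counts and 7 with DESeq2. With 1 liver left out the number was 0 to 1 (Otc, without sgCtrl 7.1, edgeR adjusted p = 0.0378), with 5 to 7 at an unadjusted p under 0.05. Of the 85 genes of the lists, 12 were called, 19 with library size alone, 24 with no filter, 29 at an adjusted p under 0.10, 35 with DESeq2, 0 at an adjusted p under 0.01 and 0 to 12 with 1 liver left out. The causes were not tested.

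Every log2 fold change of the 8 genes kept its sign under each alternative but Glud1 with library size alone (-0.027). Arg2 changed sign with upper-quartile normalization (-0.00057), library size alone (-0.34) and livers left out (-0.12 to 0.26). With 1 liver left out, these log2 differences also changed sign: Glul/Cps1 (-0.91 to 0.089), Oat/Otc (-0.33 to 0.10), Otc/Cps1 (-0.035 to 0.32), Arg1/Cps1 (-0.54 to 0.11) and Nags/Cps1 (-0.60 to 0.15), and, relative to hepatocyte markers, Cps1 (-0.29 to 0.40), Ass1 (-0.076 to 0.66), Asl (-0.23 to 0.17), Arg1 (-0.25 to 0.041), Nags (-0.20 to 0.0010) and Gls2 (-0.061 to 1.03). Depth did not limit the 8 genes, each with far more than 3 counts per liver.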
